A study of Mus musculus with 2 samples.

Results

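Rhag, Rhd, Ermap and Kel encode proteins of the red cell membrane that carry blood group antigens in humans. They were taken by symbol, and all 4 of the 4 were found among the 32285 genes listed in both libraries. The libraries held Lineage-negative, c-Kit-positive cells of the E14.5 mouse fetal liver, the organ in which red cells are made at that stage, counted as UMIs (tagged transcript molecules) with droplet chemistry for transcript 3' ends. The Brd9 knockout library came from C57BL/6 embryos with the genotype CD45.2(+) Vav1-iCre Brd9fl/fl, in which a Cre recombinase driven by the Vav1 promoter, active in blood cells, removes floxed Brd9, and the control library from C57BL/6 embryos with the genotype CD45.2(+) Brd9fl/fl. Both groups carry the floxed allele and the control has no Cre, so effects of Cre and of Brd9 loss cannot be told apart. There was 1 library per genotype, and how many embryos went into each is not stated in the labels, so no difference between genotypes has a replicate check. Intervals are given at 95%, cover the counting error alone, and no p-value was computed from cells.

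Brd9 encodes a bromodomain protein of the non-canonical form of the BAF complex, which remodels chromatin. Rhag, the Rh-associated glycoprotein, is a membrane channel of the ammonium transporter family, and it must be present for Rh polypeptides such as the product of Rhd to reach the cell surface. Together they form the core of the Rh complex, which is tied to the membrane skeleton through ankyrin. Ermap is a membrane protein of the immunoglobulin superfamily, related to the butyrophilins, and carries the human Scianna antigens. Kel is a membrane metalloendopeptidase that carries the Kell antigens and is bound to the Xk protein by a disulfide bond.

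The 4 genes are protein coding in the GENCODE M21 annotation of mm10. Ermap lies on chromosome 4 at 119175457 to 119190011 on the minus strand, Rhag on chromosome 17 at 40811126 to 40840754 on the plus strand, Rhd on chromosome 4 at 134864536 to 134896172 on the plus strand, and Kel on chromosome 6 at 41686330 to 41704339 on the minus strand. Kel overlaps Gm37527, an unclassified gene on the same strand, which the files do not list, and the other 3 overlap no annotated gene. Their promoter sequences are shown because the RNAs of the genes lay mostly in erythroid cells and each window held a GATA motif, the letter pattern bound by GATA1 and GATA2. All 4 matched the RefSeq promoter table (GRCm38.p6), which gives 250 bases before and 50 bases after each start: chr4:119189946-119190245 on the minus strand for Ermap, chr17:40810899-40811198 on the plus strand for Rhag, chr4:134864286-134864585 on the plus strand for Rhd and chr6:41704276-41704575 on the minus strand for Kel. Sequences run 5′ to 3′ on the gene's strand, and capitals mark AGATAA or TGATAA on either strand.
Ermap: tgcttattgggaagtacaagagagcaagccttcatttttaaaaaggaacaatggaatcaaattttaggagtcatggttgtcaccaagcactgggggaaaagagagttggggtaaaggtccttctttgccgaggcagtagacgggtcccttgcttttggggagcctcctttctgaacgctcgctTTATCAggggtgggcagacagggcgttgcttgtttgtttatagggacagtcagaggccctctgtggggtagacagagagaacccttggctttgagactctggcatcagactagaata
Rhag: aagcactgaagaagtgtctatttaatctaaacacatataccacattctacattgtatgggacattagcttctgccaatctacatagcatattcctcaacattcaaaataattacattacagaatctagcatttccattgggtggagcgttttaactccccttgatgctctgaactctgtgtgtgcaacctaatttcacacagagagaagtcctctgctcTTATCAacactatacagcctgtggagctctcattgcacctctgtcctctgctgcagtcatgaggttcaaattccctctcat
Rhd: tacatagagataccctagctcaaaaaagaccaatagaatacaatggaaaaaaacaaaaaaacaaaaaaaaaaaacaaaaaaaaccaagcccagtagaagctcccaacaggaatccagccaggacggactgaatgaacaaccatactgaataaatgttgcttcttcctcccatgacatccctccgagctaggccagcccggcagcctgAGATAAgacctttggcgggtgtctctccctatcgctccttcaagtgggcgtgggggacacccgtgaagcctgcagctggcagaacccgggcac
Kel: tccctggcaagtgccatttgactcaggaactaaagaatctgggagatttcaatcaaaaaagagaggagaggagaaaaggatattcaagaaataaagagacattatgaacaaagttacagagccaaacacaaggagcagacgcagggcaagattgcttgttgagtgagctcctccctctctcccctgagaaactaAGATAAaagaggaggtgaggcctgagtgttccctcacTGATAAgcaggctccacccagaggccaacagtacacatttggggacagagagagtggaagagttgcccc
The motif began 67 bases before the start in Ermap, 31 before it in Rhag, 43 before it in Rhd, and 56 and 19 before it in Kel. Of 32851 RefSeq promoters of this length, 18.6% held at least 1 such motif and 3.26% held at least 2. The KLF-type letters CCNCNCCC, on either strand, were found in the window of Rhd, and 49.5% of all promoters held them. The windows are shown because they held the GATA motif, so its share among all promoters is background and no test of the 4 genes. A match describes the letters in the window and was not tied to binding, which was not measured.

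After filtering and removal of doublets, 6757 knockout and 6860 control cells were kept, with medians of 36007 (knockout) and 38485.5 (control) UMIs per cell. Brd9 checked the labels: in CPM, the UMIs per 1e6 UMIs of a library or class, it stood at 7.06 in the knockout, against 27.2 in the control, a log2 ratio of -1.95 (-2.02 to -1.87). Cells with an X-inactivation transcript made up 58.9% of knockout and 23.0% of control cells, so the libraries differ in the sex of their embryos, and values for each sex are given beside the main results. The libraries shared 16 barcode sequences. Cell classes were named from clusters rebuilt from the counts, and each name means cells resembling that type. The erythroid class held 3685 knockout and 4134 control cells, and the megakaryocyte-erythroid progenitor (MEP) class held 1706 (knockout) and 1118 (control).

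The 4 genes were mostly RNAs of erythroid cells in both libraries, and Kel was also above its GMP level in the class named mast and basophil. Erythroid cells held 81.0% to 90.3% of the UMIs of each gene in the knockout library, against 86.7% to 94.2% in the control. Rhag, the channel of the Rh complex, stood at 260.4 CPM in knockout and 270.6 CPM in control erythroid cells, at 86.1 (knockout) and 83.1 (control) CPM in MEP cells, and at 3.17 (knockout) and 6.21 (control) CPM in stem and multipotent progenitor (HSC/MPP) cells. Rhd, the Rh polypeptide, stood at 288 (knockout) and 317 (control) CPM in erythroid cells, 65.8 (knockout) and 68.6 (control) CPM in MEP cells, and 4.22 (knockout) and 7.40 (control) CPM in HSC/MPP cells. Both Rh genes therefore had the order erythroid above MEP above HSC/MPP in each library, with intervals that did not overlap.

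Ermap, the butyrophilin-related gene, stood at 274 CPM in knockout and 322 CPM in control erythroid cells, at 140.6 (knockout) and 186 (control) CPM in MEP cells, and at 4.22 (knockout) and 5.23 (control) CPM in HSC/MPP cells. Kel, the peptidase, stood at 159.6 (knockout) and 158.5 (control) CPM in erythroid cells, 42.1 (knockout) and 37.8 (control) CPM in MEP cells, and 1.79 (knockout) and 4.44 (control) CPM in HSC/MPP cells. Levels in granulocyte-monocyte progenitor (GMP) cells, which should lack these antigens, ranged over the 4 genes from 7.61 to 12.1 CPM in the knockout, against 3.48 to 6.96 CPM in the control. The same cells carried 397 (knockout) and 308 (control) CPM summed over the 19 erythroid markers listed in the files, and the part of free RNA or mixed droplets in these low levels was not tested. In the knockout the HSC/MPP values lay below the GMP values. In the control Rhag, Rhd and Kel lay above their GMP values of 4.08, 6.96 and 3.48 CPM, and Ermap lay below its 5.27 CPM, all with overlapping intervals. The neighbours HSC/MPP, GMP, monocyte and megakaryocyte are not ordered here. In lymphoid-primed and hepatocyte cells each gene had between 0 and 19 UMIs in a library.

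**Figure D1:**
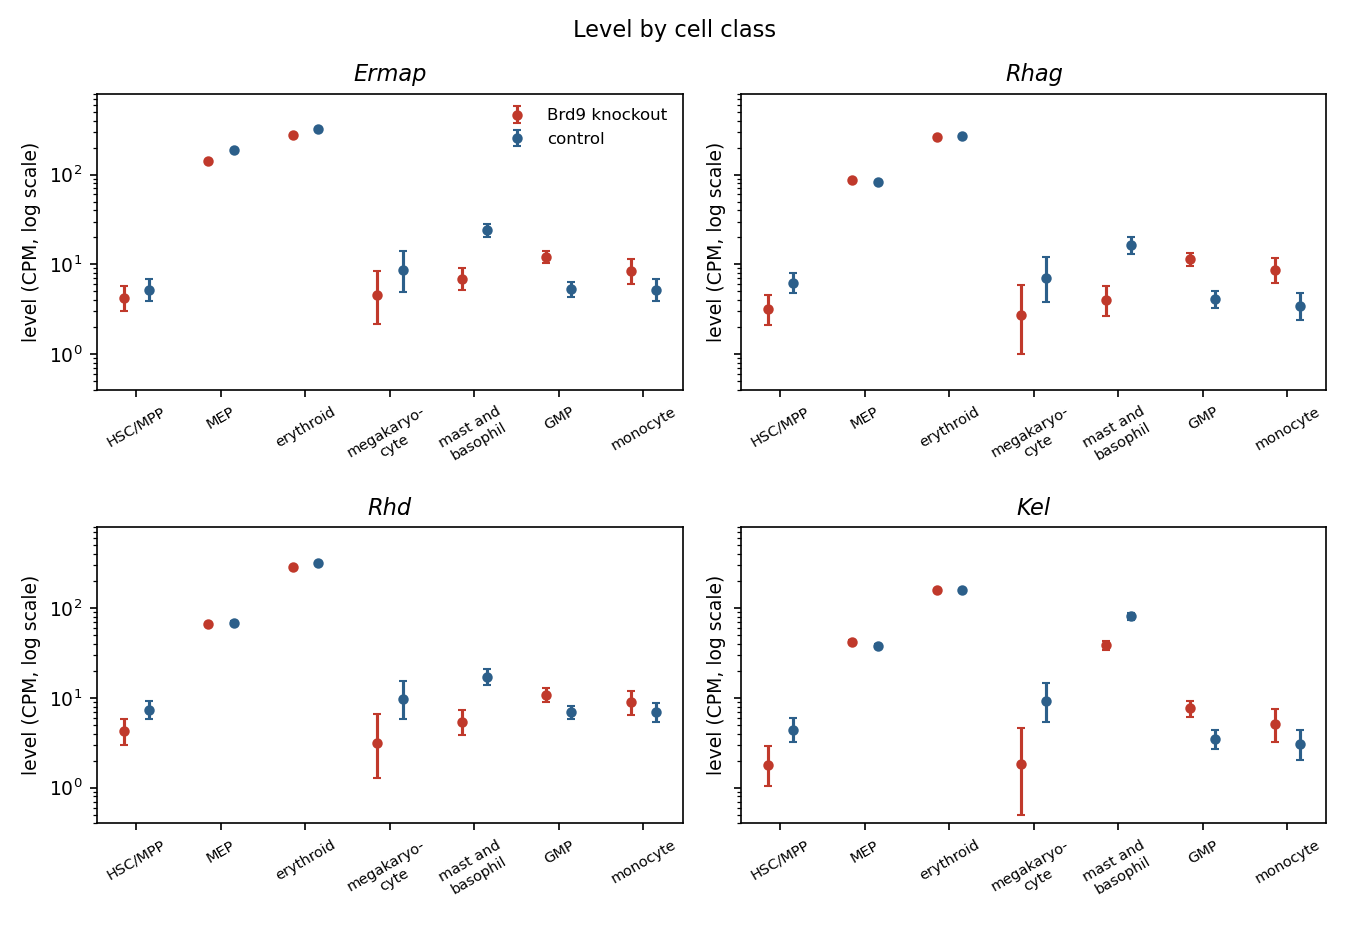
Level of each gene in 7 cell classes, in CPM on a log axis, with the knockout library left of the control and bars for the exact Poisson interval (counting error only, 1 library per genotype). Erythroid and MEP cells are high for all 4 genes, and mast and basophil cells stand out for Kel, at 38.4 CPM in the knockout, against 81.4 CPM in the control.

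At single-cell level most erythroid cells held RNA of all 4 genes. Each cell was thinned to 18526 UMIs, which left out 72 knockout and 51 control erythroid cells. Ermap was then detected in 98.7% of knockout and 99.5% of control erythroid cells, Rhag in 98.1% (knockout) and 98.2% (control), Rhd in 97.9% (knockout) and 97.99% (control), and Kel in 88.4% (knockout) and 86.8% (control). In GMP cells the shares were 6.32% to 9.62% in the knockout and 2.90% to 9.39% in the control, with unthinned medians of 29590 (knockout) and 30899 (control) UMIs per cell, against 38849 (knockout) and 41268 (control) in erythroid cells. All 4 genes were detected in 84.8% of knockout and 83.8% of control erythroid cells and 1 alone in 0.166% (knockout) and 0.122% (control), and no cell lacked all 4. Since each gene alone was found in most of these cells, a high joint share follows from the single shares. Detection together beyond that was not tested. Without thinning, the erythroid shares were 96.6% to 99.7% in the knockout and 97.3% to 99.9% in the control.

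MEP cells held the genes in part. All 4 were detected in 22.6% of knockout and 21.8% of control MEP cells, and none in 16.3% (knockout) and 11.3% (control). Ermap was detected in 70.9% (68.6 to 73.0) of knockout and 80.1% (77.6 to 82.4) of control MEP cells, and these intervals did not overlap. Rhag was detected in 58.5% (knockout) and 57.97% (control), Rhd in 52.1% (knockout) and 54.0% (control), and Kel in 43.5% (knockout) and 42.9% (control), with overlapping intervals. Ermap was present without Kel in 554 knockout and 459 control MEP cells, and Kel without Ermap in 101 (knockout) and 55 (control). Rhag was present without Rhd in 306 (knockout) and 177 (control) MEP cells, and Rhd without Rhag in 199 (knockout) and 134 (control).

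Across the erythroid intervals the genes came on in the order Ermap, Rhag, Rhd, Kel, while in the earlier MEP clusters Kel had no fixed place. Levels were followed through the 4 MEP clusters and then through 10 intervals of erythroid cells, ranked by the share of alpha-globin RNA and cut so that the pooled cells were split evenly. Cluster 8, the earliest by its genes, had Gata2, a progenitor transcription factor, at 112.4 CPM in the knockout, against 112.1 CPM in the control, and Klf1, an erythroid transcription factor, at 89.9 (knockout) and 110.0 (control) CPM. Clusters 9, 5 and 4 had Gata2 at 6.71 to 23.7 CPM in knockout and 4.60 to 22.8 CPM in control cells, and Klf1 at 211 to 265 CPM in knockout and 214 to 287 CPM in control cells. They were named by marker level, not by leading genes, and border on the erythroid class. Erythroid clusters 0, 1, 2, 3 and 12 were named by marker level too, with at most 1 erythroid marker among their top 30 genes.

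Levels are given next as percent of each gene's highest erythroid interval in that library. Ermap stood at 8.54% in knockout and 17.8% in control cells of cluster 8, at 36.9% (knockout) and 51.7% (control) in cluster 9, at 62.4% (knockout) and 69.1% (control) in cluster 5, and at 69.0% (knockout) and 73.8% (control) in cluster 4. Rhag stood at 5.62% (knockout) and 5.80% (control) in cluster 8, and at 39.3% (knockout) and 42.7% (control) in cluster 4. Rhd stood at 3.20% (knockout) and 3.17% (control) in cluster 8, at 10.6% (knockout) and 8.35% (control) in cluster 9, at 19.4% (knockout) and 14.6% (control) in cluster 5, and at 26.4% (knockout) and 26.0% (control) in cluster 4. Kel stood at 6.74% (knockout) and 7.36% (control) in cluster 8, at 10.2% (knockout) and 9.79% (control) in cluster 9, at 22.0% (knockout) and 18.3% (control) in cluster 5, and at 18.7% (knockout) and 15.6% (control) in cluster 4. Kel was thus ahead of Rhd in clusters 8 and 5 of both libraries and in cluster 9 of the control, and behind it in cluster 4 of both, and in cluster 8 it was also ahead of Rhag. Ermap was thus well past the middle of its range before the first erythroid interval, while the others were below it.

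Within erythroid cells, Ermap began at 72.0% of its highest interval in the knockout and 81.8% in the control, Rhag at 48.7% (knockout) and 51.2% (control), Rhd at 32.0% (knockout) and 28.2% (control), and Kel at 26.0% (knockout) and 24.0% (control). Onset was set at the first interval with at least 50% of the highest. Ermap reached it in interval 1 in both libraries, Rhag in interval 2 in the knockout and 1 in the control, Rhd in interval 4 in both, and Kel in interval 6 in both. From the first to the last interval Kel increased 3.84-fold in the knockout and 4.17-fold in the control, Rhd 3.12-fold (knockout) and 3.55-fold (control), Rhag 2.05-fold (knockout) and 1.95-fold (control), and Ermap 1.39-fold (knockout) and 1.17-fold (control). Ermap was highest in interval 10 in the knockout and interval 7 in the control, and the other 3 in interval 10 in both.

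**Figure D2:**
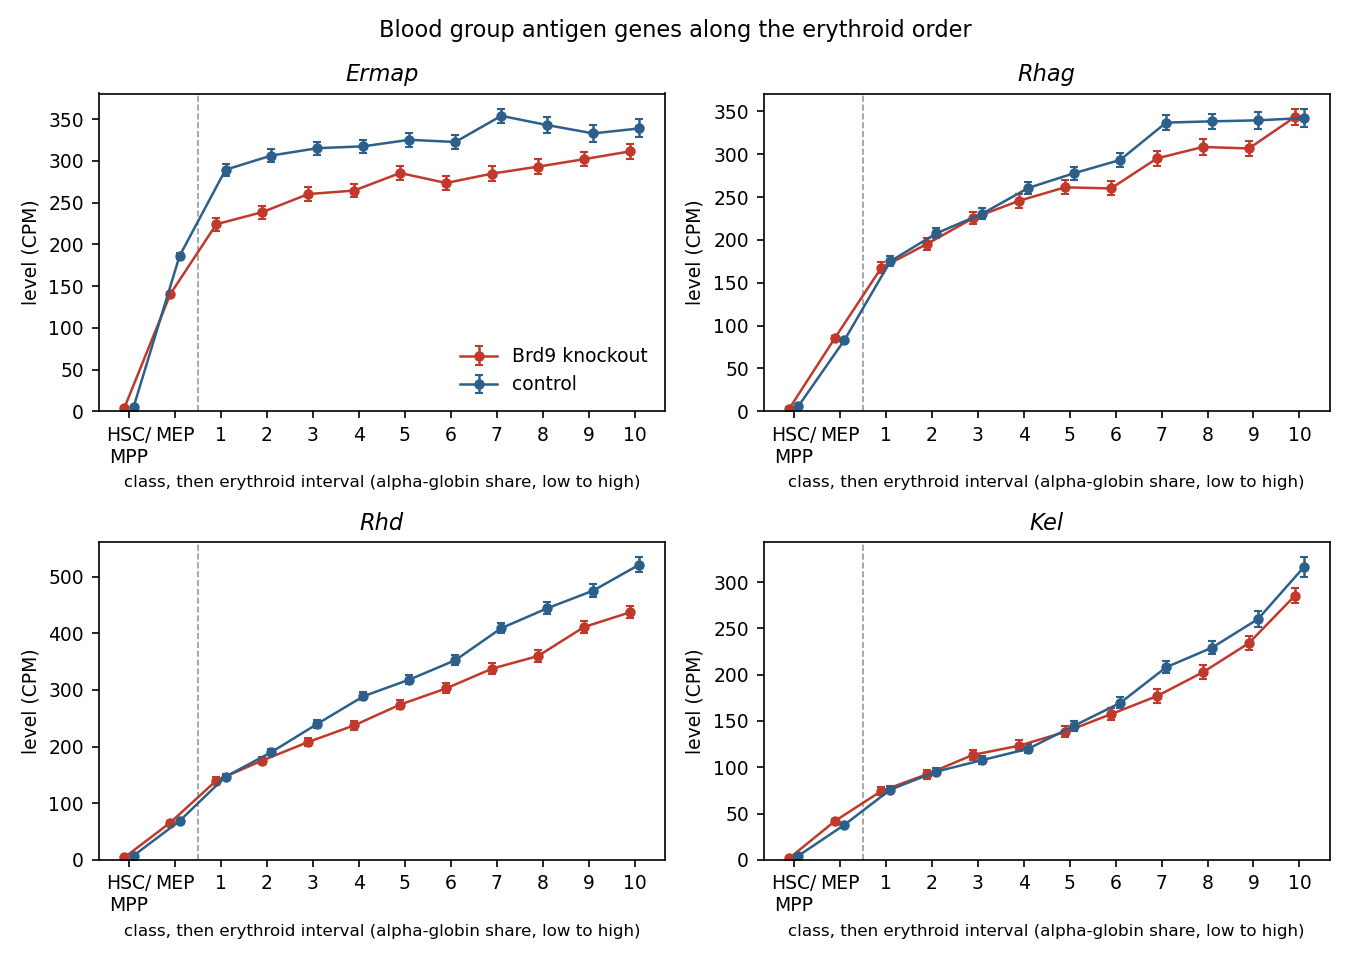
Level of each gene (CPM, linear axis from 0) in HSC/MPP cells, MEP cells and the 10 erythroid intervals, for the knockout and the control library, with bars for the exact Poisson interval. Ermap is at 224 CPM in the knockout, against 289 CPM in the control in interval 1, which is 72.0% (knockout) and 81.8% (control) of its highest interval, whereas Kel climbs to 285 (knockout) and 316 (control) CPM in interval 10.

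Since much of the onset lay ahead of the erythroid class, MEP and erythroid cells were also ranked together, a choice made after seeing the data. Ranked by 15 heme and membrane skeleton genes, Ermap passed 50% in interval 3 in the knockout and 2 in the control, and the other genes did so in the same interval in both libraries, Rhag in 4, Rhd in 6 and Kel in 8. In interval 1 of that order, where 98.9% of knockout and 98.2% of control cells were MEP cells, Ermap stood at 19.6% (knockout) and 30.9% (control) of its highest level, and the other 3 between 5.17% and 8.97% (knockout) and between 4.98% and 9.18% (control). The sequence was followed over 14 settings in 2 libraries, 28 in all. These were the main setting and changes of cell filter, clustering, order, intervals or threshold, with the rankings of MEP and erythroid cells together among them. Most settings kept the alpha-globin order, so they are not separate checks of the ranking. The sequence Ermap, Rhag, Rhd, Kel held in 26 with ties allowed and in 16 with no tie. In the 2 exceptions, both with erythroid cells ranked by their first principal component, Rhd passed 50% before Rhag, in interval 2 against 3 in the knockout and 3 against 4 in the control.

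**Figure D3:**
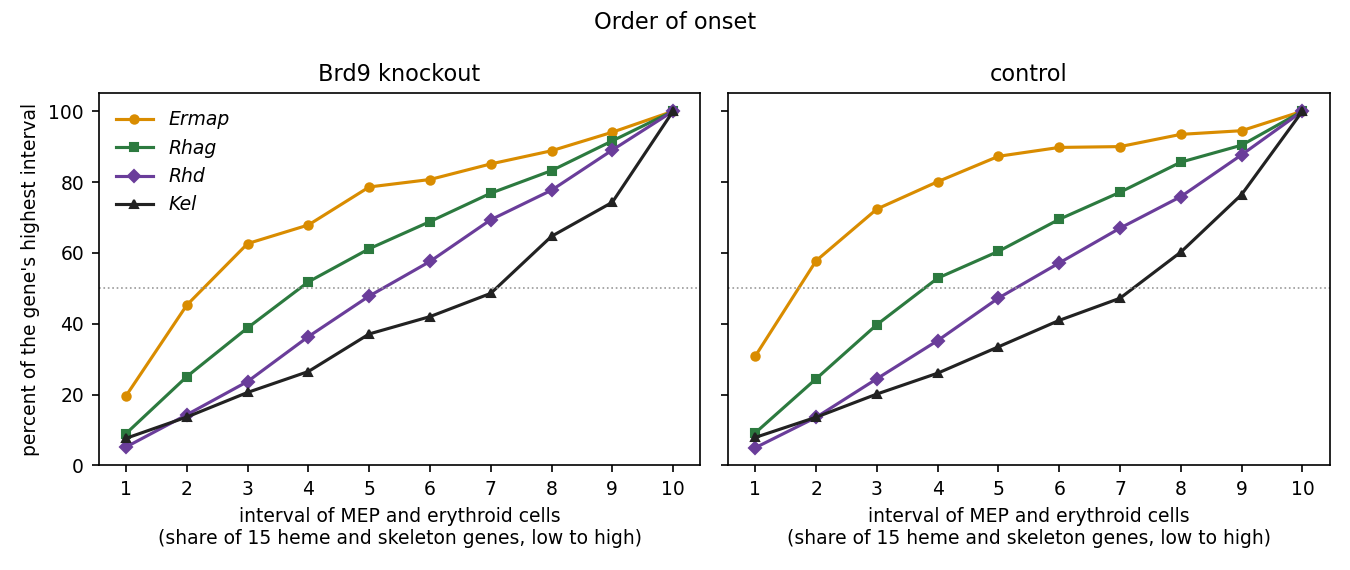
Each gene as percent of its highest interval over MEP and erythroid cells ranked by 15 heme and membrane skeleton genes, knockout left and control right; the dotted line marks 50%. Ermap passes it in interval 3 in the knockout and 2 in the control, and Rhag, Rhd and Kel follow in intervals 4, 6 and 8 in both.

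The whole libraries showed small differences between genotypes. Rhag stood at 178 CPM in the knockout, against 193 CPM in the control, a log2 ratio of -0.12 (-0.13 to -0.10). Rhd stood at 188 (knockout) and 221 (control) CPM, a ratio of -0.23 (-0.25 to -0.21). Ermap stood at 199.97 (knockout) and 244 (control) CPM, a ratio of -0.29 (-0.30 to -0.27). Kel stood at 107 (knockout) and 113 (control) CPM, a ratio of -0.07 (-0.10 to -0.05). None of the 4 was beyond 0.5 in either direction, against 1.32% of the 6226 genes with at least 20 CPM. The median of those genes was 0.03, and Ermap, Rhd, Rhag and Kel lay at percentiles 1.70, 2.67, 7.196 and 12.1 among them.

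The classes entered the libraries in different shares: erythroid cells were 54.5% of knockout and 60.3% of control cells, and MEP cells were 25.2% (knockout) and 16.3% (control). Within erythroid cells alone the log2 ratios, always knockout over control, were -0.06 (-0.07 to -0.04) for Rhag, -0.14 (-0.16 to -0.12) for Rhd, -0.24 (-0.25 to -0.22) for Ermap and 0.01 (-0.01 to 0.04) for Kel. Again 0 of 4 were beyond 0.5, against 0.851% of genes. In female erythroid cells the ratios were -0.04, -0.13, -0.21 and 0.01 for Rhag, Rhd, Ermap and Kel, and in male erythroid cells -0.06, -0.11, -0.26 and 0.08. Ermap was lower in the knockout in each sex. The interval of Kel included 0 in female cells (-0.03 to 0.06) and lay above 0 in male cells (0.04 to 0.11).

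Giving both libraries the control's share of cells in each alpha-globin interval left Ermap at -0.25 (-0.27 to -0.23), Rhd at -0.23 (-0.25 to -0.21), Rhag at -0.11 (-0.13 to -0.09) and Kel at -0.11 (-0.13 to -0.08). None was beyond 0.5, against 1.03% of genes. The value for Kel depended on the order: it was 0.04 when erythroid cells were ranked by the 15 heme and membrane skeleton genes and 0.0024 when they were ranked by the first principal component. Rhd moved to -0.12 and -0.15 under those orders, and Ermap to -0.22 under the heme order. In interval 1, at matched alpha globin, knockout cells had 24.2 CPM and control cells 68.4 CPM of Hbb-bt, a beta-globin gene. Hbb-bt was lower in the knockout in every later interval as well, at 2183 CPM against 9828 CPM in the control in interval 10. The part of this mismatch in the stage matching was not tested.

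Along the intervals, the difference in Ermap was larger in early cells and smaller in late ones. It stood at 224 CPM in the knockout, against 289 CPM in the control in interval 1 (log2 ratio -0.37, -0.43 to -0.31), at 286 (knockout) and 325 (control) CPM in interval 5 (-0.19), and at 311 (knockout) and 339 (control) CPM in interval 10 (-0.12, -0.18 to -0.06). The values between did not fall evenly, with -0.31 in interval 7. Rhd stood at 139.9 (knockout) and 146.7 (control) CPM in interval 1 (-0.07, -0.15 to 0.01), 303 (knockout) and 352 (control) CPM in interval 6 (-0.22), and 437 (knockout) and 521 (control) CPM in interval 10 (-0.25, -0.30 to -0.20). Its difference had no run that held over the other rankings: in the MEP clusters it was -0.24 in cluster 8, 0.09 in cluster 9, 0.16 in cluster 5 and -0.23 (-0.32 to -0.13) in cluster 4. With MEP and erythroid cells ranked together, the first and last intervals were at -0.25 and -0.26 by alpha globin, at -0.10 and -0.15 by heme and skeleton genes, and at 0.06 and -0.15 by the first principal component. Rhag stood at 167 (knockout) and 175 (control) CPM in interval 1 (-0.07), 295 (knockout) and 337 (control) CPM in interval 7 (-0.19), and 343 (knockout) and 342 (control) CPM in interval 10 (0.00). Kel stood at 74.2 (knockout) and 75.9 (control) CPM in interval 1 (-0.03), 177 (knockout) and 208 (control) CPM in interval 7 (-0.23), and 285 (knockout) and 316 (control) CPM in interval 10 (-0.15). The signs for Rhag and Kel depended on the ranking, as seen in intervals 1, 5 and 10 of MEP and erythroid cells ranked together. By alpha globin, Kel was at -0.09, 0.06 and -0.14, and Rhag at -0.29, -0.07 and -0.04. By the first principal component, Kel was at -0.19, 0.24 and 0.06, and Rhag at 0.18, 0.01 and -0.004.

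The largest differences in the lineage lay in the early MEP clusters and were those of Ermap. Over all MEP cells Ermap had a log2 ratio of -0.40 (-0.45 to -0.36), Rhd -0.06, Rhag 0.05 and Kel 0.16 (0.07 to 0.24), so 0 of 4 were beyond 0.5, against 1.15% of genes. By cluster, Ermap stood at 26.6 CPM in the knockout, against 62.9 CPM in the control in cluster 8 (-1.24, -1.42 to -1.06), at 114.8 (knockout) and 183 (control) CPM in cluster 9 (-0.67, -0.76 to -0.59), at 194 (knockout) and 245 (control) CPM in cluster 5 (-0.33) and at 215 (knockout) and 261 (control) CPM in cluster 4 (-0.28). In cluster 8 Ermap had over 20 CPM in both libraries and was beyond 0.5, against 1.81% of genes. Kel, at 19.2 (knockout) and 23.3 (control) CPM, passed the minimum there only through the control and is not counted. In cluster 9 1 of 4 was beyond 0.5, against 1.41% of genes, and it was again Ermap. In cluster 8 the ratios of the other genes were -0.04 for Rhag, -0.24 for Rhd and -0.28 for Kel, and the intervals of the first 2 reached past 0. Kel was at -0.10, 0.12 and 0.11 in clusters 9, 5 and 4, each with an interval that included 0. The Ermap ratio in cluster 8 was -1.21 in female and -1.56 in male cells, and in cluster 9 -0.66 in female and -0.68 in male cells.

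Cells of cluster 8 also differed in Meis1, a transcription factor of early progenitors, which stood at 372 CPM in the knockout, against 243 CPM in the control. Klf1 stood there at 89.9 (knockout) and 110.0 (control) CPM, so the knockout cells carried more Meis1 and less Klf1. Gata2 was nearly equal there, at 112.4 (knockout) and 112.1 (control) CPM. Hba-a1, an alpha-globin gene, was higher in the knockout there, at 47.6 (knockout) and 30.9 (control) CPM. The part of these differences in that of Ermap was not tested. In cluster 9 Meis1 stood at 38.6 (knockout) and 15.02 (control) CPM and Klf1 at 211 (knockout) and 229 (control) CPM. Meis1 was also higher in the knockout in cluster 5, at 22.2 (knockout) and 14.6 (control) CPM, and in cluster 4, at 10.3 (knockout) and 5.19 (control) CPM. Klf1 stood at 214 CPM in both libraries in cluster 5, and at 265 (knockout) and 287 (control) CPM in cluster 4. Hba-a1 was higher in the knockout in clusters 9, 5 and 4 too, at 86.2, 68.2 and 133 CPM, against 38.4, 51.8 and 101 CPM in the control. With MEP and erythroid cells ranked together by the heme and skeleton genes, Ermap stood at 64.9 CPM in the knockout, against 111 CPM in the control in interval 1 (-0.78, -0.88 to -0.68), 150 (knockout) and 208 (control) CPM in interval 2 (-0.48), and 331 (knockout) and 361 (control) CPM in interval 10 (-0.13). In the first interval by alpha globin its ratio was -0.63, and by the first principal component -0.92, and in the last -0.12 and -0.08. In interval 1 of the heme order Rhag was at -0.08, Rhd at -0.10 and Kel at -0.04, each with an interval that included 0.

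**Figure D4:**
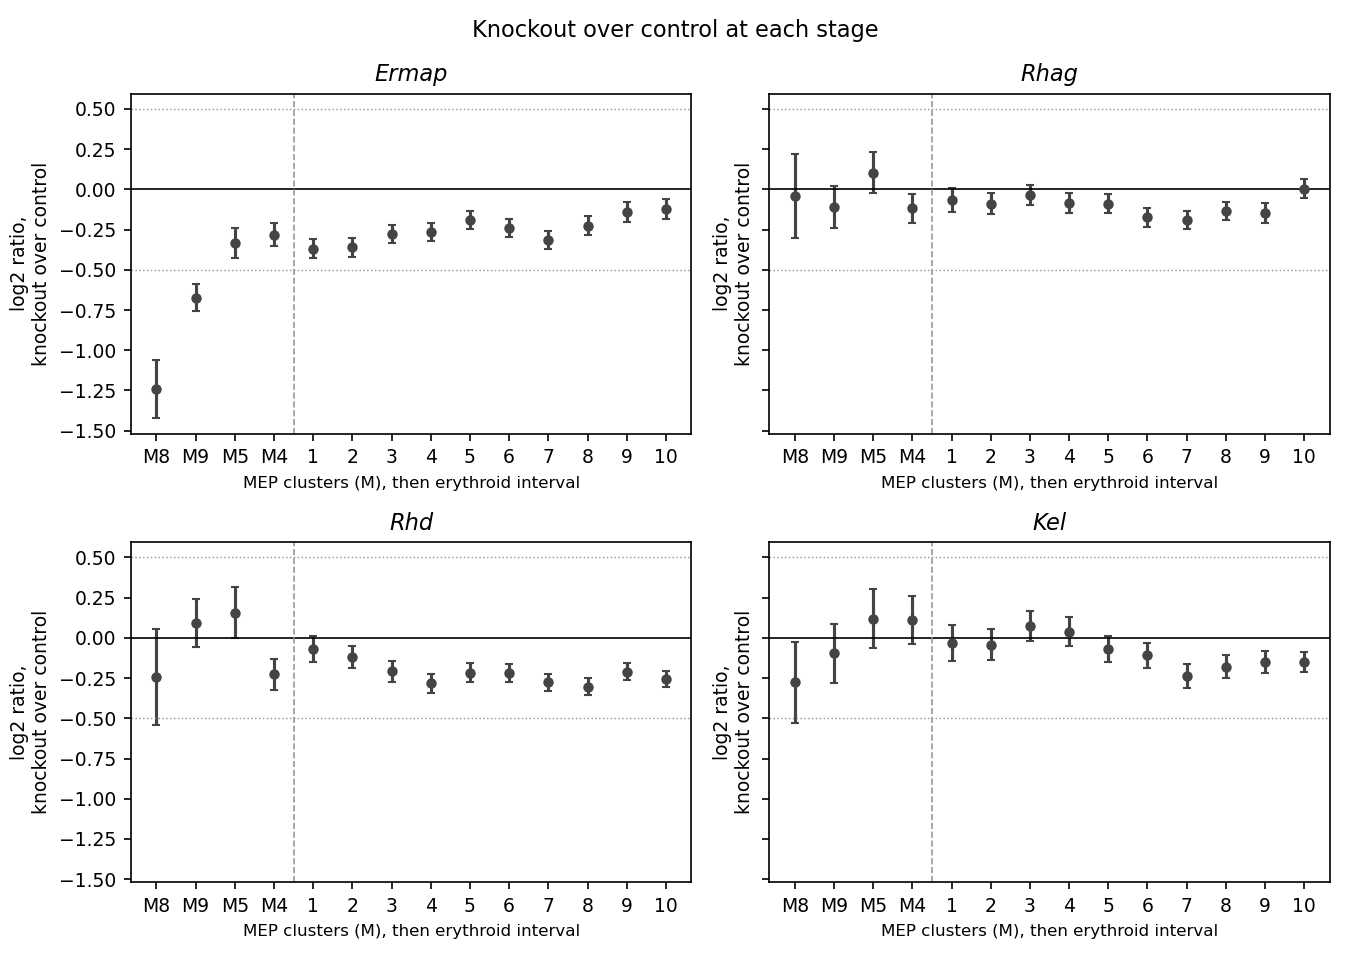
Log2 ratio of knockout over control for each gene in the 4 MEP clusters (M8, M9, M5, M4) and the 10 erythroid intervals, with bars for the conditional exact interval (counting error only) and dotted lines at 0.5 and -0.5. Ermap runs upward from -1.24 in M8 to -0.12 in interval 10, Rhd moves without a steady run between 0.16 in M5 and -0.30 in interval 8, and Rhag and Kel stay within 0.5 at every stage.

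Outside the erythroid lineage, Kel was present in mast and basophil cells, a class of 283 knockout and 190 control cells. It stood there at 38.4 CPM (34.1 to 43.2) in the knockout, against 81.4 CPM (74.1 to 89.2) in the control, a log2 ratio of -1.08 (-1.30 to -0.86). In the knockout this interval overlapped that of MEP cells, 42.1 CPM (40.6 to 43.7), and in the control it lay above theirs, 37.8 CPM (36.1 to 39.6). After thinning, 23.8% of knockout cells had a Kel UMI, as did 36.2% of control cells, against 6.32% (knockout) and 2.90% (control) of GMP cells. In the same class Rhag stood at 4.01 (knockout) and 16.3 (control) CPM, Rhd at 5.39 (knockout) and 17.2 (control) CPM, and Ermap at 6.91 (knockout) and 23.9 (control) CPM. There 4.33% of the genes that reached 20 CPM were beyond 0.5. Kel had over 20 CPM in both libraries and was beyond it, whereas Ermap passed the minimum only through the control, where it was higher, and is not counted. A single cell held 22% of the 50 knockout Ermap UMIs, and 1 cell held 14.3% of the 133 in the control, while for Kel these shares were 5.40% (knockout) and 6.62% (control). Kel UMIs were 9.59 times Rhag UMIs in knockout and 4.98 times in control mast and basophil cells, against 0.613 (knockout) and 0.586 (control) times in erythroid cells and 0.669 (knockout) and 0.854 (control) times in GMP cells.

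The mast and basophil cells with a Kel UMI, 87 in the knockout and 97 in the control, carried more Car1, an early erythroid carbonic anhydrase, than those without. Car1 stood at 110.4 CPM in knockout cells with and 16.3 CPM in those without a Kel UMI, and at 108 CPM in control cells with and 12.6 CPM in those without. Cpa3, a mast cell protease, stood at 246 CPM with and 692 CPM without a Kel UMI in the knockout, and at 388 CPM with and 529 CPM without in the control. Those 19 erythroid markers summed to 357 CPM in the knockout, against 647 CPM in the control over the class, with none at 0, and the 10 mast and basophil markers to 963 (knockout) and 1105 (control) CPM, with 1 (knockout) and 2 (control) at 0. The 10 MEP markers summed to 1373 (knockout) and 2153 (control) CPM, above the class's own markers and lower in the knockout, as Kel was, and the 10 GMP markers to 1472 (knockout) and 1731 (control) CPM. None of these MEP and GMP markers was at 0. The part of MEP and erythroid RNA or of the mix of cell states in the Kel level and its difference was not tested.

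The partners of these proteins were followed in erythroid cells. Of the Rh complex, Icam4, an adhesion protein that carries the human Landsteiner-Wiener antigens, stood at 175.9 CPM in the knockout, against 178.8 CPM in the control (log2 ratio -0.02), and Cd47, a marker of self, at 355 (knockout) and 371 (control) CPM (-0.06). Ank1, the ankyrin of the membrane skeleton, stood at 323 (knockout) and 308 (control) CPM (0.07), and Epb42, protein 4.2, at 36.2 (knockout) and 37.7 (control) CPM (-0.06). Slc4a1, the band 3 anion exchanger, stood at 41.4 (knockout) and 51.4 (control) CPM (-0.31, -0.36 to -0.26). Its stage-weighted ratio, computed on the alpha-globin order alone, was -0.80 (-0.85 to -0.75). Xk, the partner of Kel, stood at 34.6 (knockout) and 34.3 (control) CPM (0.01). Of these 6 partners Slc4a1 alone was beyond 0.5 in the stage-weighted comparison, against 1.03% of genes.

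A list of 38 other genes that carry or build blood group antigens set the 4 in context. The files list 37 of them, and 19 had at least 20 CPM in erythroid cells of either library. There, 7 lay above and 12 below 0, with 0 beyond 0.5 upward and 1 beyond it downward, against 0.367% and 0.484% of genes, and a median of -0.02 against 0.02 for all genes. Of all genes, 41.9% lay below the erythroid ratio of Kel, which was 0.01. The 1 was Aqp1, the water channel of the Colton antigens, at 25.2 CPM in the knockout, against 40.2 CPM in the control (-0.67, -0.73 to -0.61), and its whole-library ratio was -0.64. Among those with the highest erythroid CPM were Bsg (basigin, Ok antigens, -0.03), Smim1 (Vel antigen, -0.09), Slc29a1 (a nucleoside transporter, 0.05) and Icam4. Slc4a1 and Aqp1 are also among the markers that named the erythroid class. With stage weighting, on the alpha-globin order alone, 4 lay above and 16 below 0 of 20, and 2 were below -0.5, Slc4a1 and Aqp1, against 0.6% of genes. Of all genes, 33.9% lay below the stage-weighted ratio of Ank1, which was 0.001. The 16 include Aqp3, at 17.7 (knockout) and 20.3 (control) CPM, and Cd59a, at 19.2 (knockout) and 23.0 (control) CPM. Both passed the minimum only through the control, where they were higher, which adds to the count below 0.

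**Figure D5:**
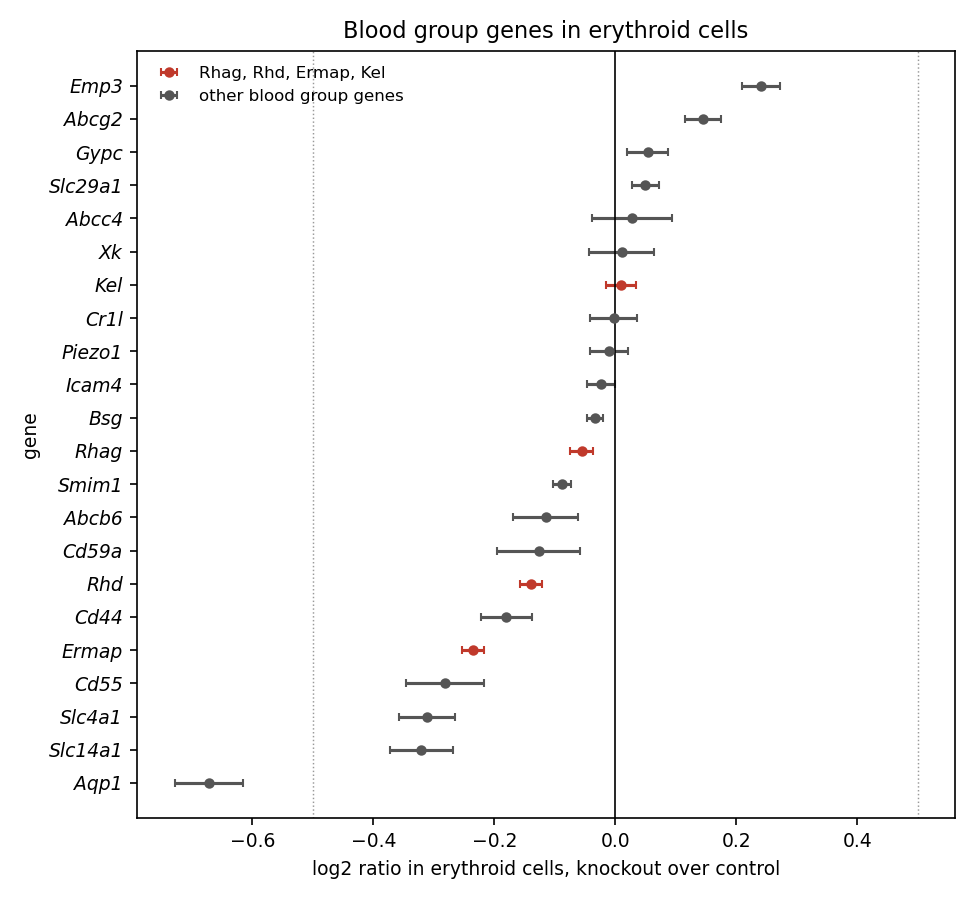
Log2 ratio of knockout over control in erythroid cells for the 4 genes (red) and the other blood group genes with at least 20 CPM (grey), 1 of the 19 not drawn, with bars for the conditional exact interval and dotted lines at 0.5 and -0.5. Ermap at -0.24 lies low among them, Kel at 0.01 in the middle, and Aqp1 at -0.67 is the only one past a dotted line.

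The profiles over the 10 erythroid intervals of both libraries, 20 points, were compared by Pearson correlation of log2(CPM + 1) with 5764 genes. The points share libraries and cell ranking, so these values describe likeness only. Rhag and Rhd followed each other (r = 0.99), Rhd and Kel were close (0.97), and Ermap stood apart, at 0.74 with Rhag, 0.75 with Rhd and 0.65 with Kel. The 3 most similar genes were Rfesd, Cited4 and Epb42 for Rhag (0.99 each), and Sox6, a transcription factor of erythroid maturation, Cited4 and Smim1 for Rhd (0.996, 0.996 and 0.995). For Ermap they were Add2, the beta adducin of the membrane skeleton, Smim5 and Pfkm, a phosphofructokinase (0.97, 0.97 and 0.96). For Kel they were Fam210b, Dhrs11 and Hipk2, a protein kinase (0.998, 0.997 and 0.997). In erythroid cells Smim5 stood at 15.3 (knockout) and 42.5 (control) CPM, and Add2 at 100.02 (knockout) and 128 (control) CPM. Smim5 reached 20 CPM only through the control. The 20 points span both libraries, so a difference shared with Ermap is part of this likeness and is no separate result.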

How the data were processed

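Per the labels' protocols, libraries were made with the 10x Genomics 3' v3.1 chemistry from cells sorted as Lineage-negative and c-Kit-positive. The authors used Cell Ranger 7.2.0 and mm10, per the submitters' processing notes, and deposited UMI counts per gene and barcode, as raw whole numbers. The sources used here do not say whether reads in introns count. The deposited totals were 271350214 UMIs in 7289 knockout barcodes and 292972312 in 7399 control barcodes. PCR copies are collapsed by UMIs, and intervals cover counting error only.

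Barcodes were kept with at least 1000 genes, 2000 UMIs and at most 10% mitochondrial UMIs, which left 7001 knockout and 7100 control cells. Scrublet in scanpy 1.11.5, with an expected rate of 6%, removed 244 knockout cells (3.49%) and 240 control cells (3.38%) as doublets. Both libraries were clustered together on 3000 variable genes, 30 components and 15 neighbours with Leiden resolution 1, without integration, and without the 4 genes. Clusters were named by markers among their top 30 genes. Where fewer than 2 were there, they were named by the mean place of a class's markers between the lowest and highest cluster on log2(CPM + 5), a rule set after a first version had left clusters unnamed. Of the erythroid clusters, 6 had over 80% of their cells from 1 library.

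UMIs were summed per library and class and given as CPM, with exact Poisson intervals, conditional exact intervals for ratios and Clopper-Pearson intervals for shares (scipy 1.17.1). Both libraries' erythroid cells were cut into 10 intervals by alpha-globin share. The stage-weighted interval is log-normal from Poisson variances, since no conditional interval exists for a weighted sum. The interval procedures for ratios were run on simulated Poisson counts with known ratios. Those counts follow the model that the intervals assume, so the run checks the computation alone and not the spread between libraries or cells. Genes were named by a fixed rule, namely the 4 genes, Brd9, the partners and paralogs, the list's members beyond 0.5 and its 5 highest in erythroid cells, and the 3 most similar genes to each; 1 of those 5 is not reported here. The marker genes Gata2, Klf1, Meis1, Car1, Cpa3, Hba-a1 and Hbb-bt and the list genes Aqp3 and Cd59a were named beyond it, after their values were seen. The 4 genes and all lists were chosen with earlier results of these data known. Female cells had at least 3 Xist UMIs and at most 1 from 4 Y-linked genes, and male cells at most 1 Xist UMI. Of the alternatives, other filters, scalings, orders, interval numbers, thresholds and sexes were tried.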

Additional observations from a re-analysis of the deposited data

Results flagged for a closer look

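Kel differed between genotypes in opposite directions in 2 classes in which it had at least 20 CPM. Its log2 ratio of knockout over control was 0.16 (0.07 to 0.24) in MEP cells and -1.08 (-1.30 to -0.86) in mast and basophil cells. Each class has 1 library per genotype, and the difference between the 2 ratios was not tested. By MEP cluster the Kel ratio was -0.28 (-0.53 to -0.02) in cluster 8. It was -0.10 in cluster 9, 0.12 in cluster 5 and 0.11 in cluster 4, each with an interval that included 0. No MEP cluster was thus above 0 with an interval apart from it. Cluster 5 held 409 knockout and 102 control cells, and the part of the cluster mix in the MEP value was not tested. The other 3 genes were at 4.01 to 6.91 CPM in the knockout and 16.3 to 23.9 CPM in the control in mast and basophil cells, below 0 in their ratios as well.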

How the results depend on the processing

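Each genotype had 1 library, so none was left out. No paired analysis was possible because each genotype has 1 library and no result comes from a test. Ermap, Rhd and Rhag stayed below 0 in all 7 whole-library, 10 erythroid and 15 stage-weighted alternatives. Kel was below 0 in all 7 whole-library, 3 of 10 erythroid and 13 of 15 stage-weighted alternatives. Counting intervals reach as little as 0.02 to either side, so a small move counts as one. Other alternatives left ratios and shares within their intervals, and the start of an onset interval within 10 percentage points of the ranked cells. Where no cause is given, the cause was not tested.

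With ratios centred on the median of all genes, whole-library ratios were -0.31 for Ermap, -0.14 for Rhag, -0.26 for Rhd and -0.10 for Kel. Erythroid ratios were -0.26 for Ermap, -0.080 for Rhag and -0.16 for Rhd. Stage-weighted ratios were -0.29 for Ermap, -0.14 for Rhag, -0.27 for Rhd and -0.14 for Kel. In female cells only, whole-library ratios were -0.31 for Ermap, -0.15 for Rhag, -0.26 for Rhd and -0.11 for Kel. Erythroid ratios were -0.21 for Ermap and -0.036 for Rhag. Stage-weighted ratios were -0.22 for Ermap, -0.063 for Rhag, -0.19 for Rhd and -0.053 for Kel. In male cells only, whole-library ratios were -0.33 for Ermap, -0.15 for Rhag and -0.043 for Kel. Erythroid ratios were -0.26 for Ermap, -0.11 for Rhd and 0.078 for Kel. Stage-weighted ratios were -0.30 for Ermap, -0.16 for Rhag, -0.27 for Rhd and -0.15 for Kel. With every cell thinned, the whole-library ratio was -0.27 for Ermap. The erythroid ratio was -0.21 for Ermap. Stage-weighted ratios were -0.23 for Ermap and -0.083 for Rhag. With doublets kept, erythroid ratios were -0.22 for Ermap, -0.035 for Rhag, -0.10 for Rhd and 0.057 for Kel. At Leiden resolution 0.6, the erythroid ratio was 0.043 for Kel. With the order by heme and membrane skeleton genes, stage-weighted ratios were -0.22 for Ermap, -0.045 for Rhag, -0.12 for Rhd and 0.044 for Kel. With the order by the first principal component, stage-weighted ratios were -0.061 for Rhag, -0.15 for Rhd and 0.0024 for Kel. With MEP clusters counted as erythroid, erythroid ratios were -0.34 for Ermap, -0.17 for Rhag, -0.28 for Rhd and -0.12 for Kel. Stage-weighted ratios were -0.31 for Ermap, -0.14 for Rhag and -0.26 for Rhd. Without the erythroid clusters of which 1 library held over 80% of cells, erythroid ratios were -0.20 for Ermap and -0.027 for Rhag. Stage-weighted ratios were -0.22 for Ermap and -0.077 for Rhag. The alternatives with MEP clusters or without skewed clusters were chosen after seeing the data.

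At 25% of the highest interval, onset moved to interval 1 for Rhd and 1 for Kel in the knockout, and to 1 for Rhd and 2 for Kel in the control. At 75%, onset moved to interval 5 for Rhag, 7 for Rhd and 9 for Kel in the knockout, and to 4 for Rhag, 7 for Rhd and 9 for Kel in the control. With erythroid cells ranked by the first principal component, onset moved to interval 2 for Rhd and 8 for Kel in the knockout, and to 4 for Rhag and 8 for Kel in the control. With MEP and erythroid cells ranked by alpha globin, onset moved to interval 3 for Ermap, 4 for Rhag and 6 for Rhd in the knockout, and to 4 for Rhag and 6 for Rhd in the control. With both ranked by the first principal component, onset moved to interval 3 for Ermap, 5 for Rhag, 6 for Rhd and 8 for Kel in the knockout, and to 5 for Rhag, 6 for Rhd and 8 for Kel in the control. With both ranked by heme and skeleton genes, onset moved to interval 3 for Ermap, 4 for Rhag, 6 for Rhd and 8 for Kel in the knockout, and to 4 for Rhag, 6 for Rhd and 8 for Kel in the control. Onsets over MEP and erythroid cells count more cells per interval and were added after seeing the data.

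With at least 2 UMIs required, the erythroid share of cells was 93.9% for Ermap, 91.8% for Rhag, 92.2% for Rhd and 68.9% for Kel in knockout cells, and 97.3% for Ermap, 92.3% for Rhag, 93.4% for Rhd and 67.9% for Kel in control cells. Without thinning, the erythroid share of cells was 99.7% for Ermap, 99.4% for Rhag, 99.4% for Rhd and 96.6% for Kel in knockout cells, and 99.9% for Ermap, 99.7% for Rhag, 99.8% for Rhd and 97.3% for Kel in control cells. With doublets kept, the erythroid share of cells was 99.2% for Ermap, 98.6% for Rhag, 98.5% for Rhd and 90.96% for Kel in knockout cells, and 98.6% for Rhag, 98.5% for Rhd and 88.7% for Kel in control cells. With the stricter cell filter, the erythroid share of cells was 98.6% for Rhag, 98.5% for Rhd and 90.4% for Kel in knockout cells, and 98.7% for Rhag, 98.5% for Rhd and 88.7% for Kel in control cells. With a minimum of 5 CPM, 251 genes were beyond 0.5 in the whole libraries, and with no minimum 5069, against 82 at 20 CPM. Lower minimums admit genes with few UMIs.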

Other observations

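The nearest relatives of the 4 genes were scarcely transcribed in these cells. Rhbg and Rhcg, Rh glycoproteins of other epithelia, had 2 and 4 UMIs in the whole knockout library and 6 each in the control, below 0.0219 CPM. Of the peptidases related to Kel, Ece1, which activates endothelin, was the highest, at 6.93 CPM in the knockout, against 5.68 CPM in the control, and Mme, Ece2, Mmel1, Ecel1 and Phex lay at or below 0.572 CPM in both. Of the butyrophilin relatives of Ermap, Btnl10 stood at 1.97 (knockout) and 3.44 (control) CPM (log2 ratio -0.80, -0.96 to -0.65), Btnl9 at 1.21 (knockout) and 1.13 (control) CPM, Btn1a1 at 0.998 (knockout) and 0.808 (control) CPM and Btn2a2 at 0.0236 (knockout) and 0.0146 (control) CPM. All were under the 20 CPM set for comparison.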
